A study of Mus musculus with 16 samples.

Results

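The genes described here encode the collagens and the enzyme families that modify collagen in the brain of old male mice, and they were taken from the deposited table by name. A protein-coding gene belonged if its symbol was that of a collagen chain (Col, a number, a and a number), a lysyl hydroxylase (Plod1 to Plod3), a prolyl 4-hydroxylase alpha subunit (P4ha1 to P4ha3), a member of the prolyl 3-hydroxylase family (P3h1 to P3h4) or a lysyl oxidase (Lox and the Loxl genes). This gave 59 of 40481 genes, of which 44 encode collagen chains and 15 belong to the enzyme families. Col1a1, Col1a2 and Col3a1, the chains of collagen types I and III that fibroblasts of the meninges make, were set apart from the rest by the same rule, which names genes and uses no measured value.

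All mice were males of strain C57BL (C57BL/6J in the study's text), bought at 18 months of age and divided into weight-matched groups of 15. Mice of the adropin group received the synthetic secreted domain of adropin, residues 34 to 76, once a day by intraperitoneal injection at 90 nmol/kg/d in 0.9% saline that held 0.1% BSA. Mice of the saline group received that diluent alone. Injections ran for 2 weeks before behavioral tests and went on during them, for about a month in all by the study's text. Every mouse was fasted for 6 h at the end before the brain was frozen. RNA of 8 mice per group was sequenced after poly-A selection, and each mouse is 1 replicate. Which region of the brain was taken is not given in the sources used here. A mouse is called here by its label, a pair of numbers such as 8_3.

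A collagen is built from 3 alpha chains that wind around each other into a triple helix, and this happens inside the endoplasmic reticulum before secretion. Prolyl 4-hydroxylases hydroxylate the prolines that keep the helix stable at body temperature, prolyl 3-hydroxylases modify a few further prolines, and lysyl hydroxylases modify lysines from which crosslinks are later made. Lysyl oxidases act outside the cell and oxidize lysines so that neighbouring molecules become crosslinked. Collagen types I and III in the brain are made mainly by fibroblasts of the meninges and around vessels, whereas collagen IV and its partners make the basement membrane of blood vessels. In bulk tissue, fewer cells of a type and less RNA per cell cannot be told apart.

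Total counts per mouse ran from 35026503 to 70314050. Of the 59 members, 49 exceeded 1 CPM (counts scaled to library size) in at least 7 mice and were tested among 14949 genes. Levels are given as CPM after scaling by trimmed mean of M-values (TMM) size factors, with mean ± SD (n = 8 mice per group), and differences as log2 fold changes, adropin over saline, with their standard errors from edgeR's quasi-likelihood test. No gene of the whole table reached a Benjamini-Hochberg adjusted p below 0.05 in that test (smallest adjusted p = 0.387), and 596 had an unadjusted p below 0.05, so every p of a member that is below 0.05 is unadjusted. Markers of neurons summed to between 7257 and 8765 CPM in every mouse of either group. Saline-treated mouse 8_3 stood apart, with a summed level of 2489 CPM over 9 markers of choroid plexus epithelium, where the next saline-treated mouse had 332 and the adropin-treated mice between 11.7 and 76.9. Counts over all members, and many of the values that this mouse moved, are given with and without it.

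Promoter windows of RefSeq on GRCm38.p6, from 250 bases before to 50 bases after the start of a gene, matched 43 of the 59 members, and Plod2 and Col1a1 did not match. The window of P4ha1, the called member with a match, is shown with the letters ACGTG or GCGTG on either strand in capitals, the core to which hypoxia-inducible factors bind. It lies at chr10:59323046-59323345 on the plus strand and holds 3 matches.
P4ha1: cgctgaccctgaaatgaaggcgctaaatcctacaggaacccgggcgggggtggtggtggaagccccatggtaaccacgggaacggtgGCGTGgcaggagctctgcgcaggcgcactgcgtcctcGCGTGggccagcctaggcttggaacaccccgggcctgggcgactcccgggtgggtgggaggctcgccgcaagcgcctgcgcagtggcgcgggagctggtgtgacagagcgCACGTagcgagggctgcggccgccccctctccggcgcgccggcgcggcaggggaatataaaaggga
Of the member windows 19 of 43 (44.2%) held this core, and of all 27025 windows 43.8% did. The next windows belong to meningeal collagens, Col1a2 at chr6:4505368-4505667 and Col3a1 at chr1:45311288-45311587, both on the plus strand. RefSeq starts Col1a2 at 4505618, downstream of the start at 4504814 in the GENCODE annotation that gives the gene coordinates below. Capitals mark CCAAT on either strand in Col1a2, with 2 matches, and TATAAA on either strand in Col3a1, with 1 match.
Col1a2: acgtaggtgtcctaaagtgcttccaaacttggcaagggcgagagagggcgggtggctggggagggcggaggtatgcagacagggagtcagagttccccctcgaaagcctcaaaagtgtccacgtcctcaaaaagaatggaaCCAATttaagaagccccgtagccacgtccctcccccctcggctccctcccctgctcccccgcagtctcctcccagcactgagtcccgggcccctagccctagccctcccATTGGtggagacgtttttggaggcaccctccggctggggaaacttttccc
Col3a1: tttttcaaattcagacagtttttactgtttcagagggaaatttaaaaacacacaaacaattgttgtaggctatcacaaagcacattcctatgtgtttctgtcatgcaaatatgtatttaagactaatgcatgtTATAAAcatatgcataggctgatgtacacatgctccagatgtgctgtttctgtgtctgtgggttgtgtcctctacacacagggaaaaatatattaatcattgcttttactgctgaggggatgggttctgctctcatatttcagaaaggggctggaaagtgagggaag
CCAAT was found in 14 of 43 member windows (32.6%) and in 37.9% of all windows, and TATAAA in 7 of 43 (16.3%) and in 14.2%. Col4a1 and Col4a2, the chains of vascular basement membrane collagen, start head to head on opposite strands of chromosome 8 and were the member pair that varied most alike between mice. Their windows, chr8:11312777-11313076 on the minus strand and chr8:11312555-11312854 on the plus strand, share the 78 bases in capitals, each written 5′ to 3′ on the strand of its own gene.
Col4a1: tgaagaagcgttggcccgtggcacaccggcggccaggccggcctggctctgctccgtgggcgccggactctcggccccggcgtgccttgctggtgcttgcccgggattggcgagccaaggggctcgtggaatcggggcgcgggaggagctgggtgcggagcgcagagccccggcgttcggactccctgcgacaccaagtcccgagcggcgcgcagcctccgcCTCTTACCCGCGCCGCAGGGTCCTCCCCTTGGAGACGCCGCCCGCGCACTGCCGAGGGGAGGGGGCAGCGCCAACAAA
Col4a2: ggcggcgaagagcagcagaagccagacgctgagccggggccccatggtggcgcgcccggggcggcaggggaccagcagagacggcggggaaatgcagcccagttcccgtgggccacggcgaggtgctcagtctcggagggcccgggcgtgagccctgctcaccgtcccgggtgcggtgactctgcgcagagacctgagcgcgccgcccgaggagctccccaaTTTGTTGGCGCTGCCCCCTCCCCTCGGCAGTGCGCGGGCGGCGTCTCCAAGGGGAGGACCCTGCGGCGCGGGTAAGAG
A match of letters is a description of the window and not of a bound factor.

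No collagen chain was called different between the groups, and the members with the smallest p were a lysyl hydroxylase and a prolyl 4-hydroxylase. In adropin-treated mice 33 of the 49 tested members (67.3%) had a lower fitted level, against 50.8% of all genes tested, and the median log2 fold change was -0.05 over members and -0.0019 over all genes. Without mouse 8_3, 29 members (59.2%) were lower, against 49.6% of all genes. In the fit blocked by the first number of the mouse label, 20 members were lower, against 50.2% of all genes. The median log2 fold change in that fit was 0.08 over members and -0.0006 over all genes, so the direction of the member median turned. At an unadjusted p below 0.05, 2 members were lower, Plod2 and P4ha1, which is 4.08% of those tested where 2.13% of all genes were called lower. No member was called higher at this p, where 1.86% of all genes were. With a fold change above 1.5 as well, 0 members were called in either direction, against a background of 0.308% of all genes lower and 0.114% higher. Of the collagen chains 23 of 37 were lower (median log2 fold change -0.05, 0 called), and of the enzymes 10 of 12 (median -0.08, 2 called), or 21 and 8 without mouse 8_3. By the rule's own division, 0 of the 3 meningeal collagens and 33 of the 46 other members were lower, with medians of 0.09 and -0.06, and 0 and 29 were lower without that mouse. These differences between groups of genes were not tested.

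**Figure D1:**
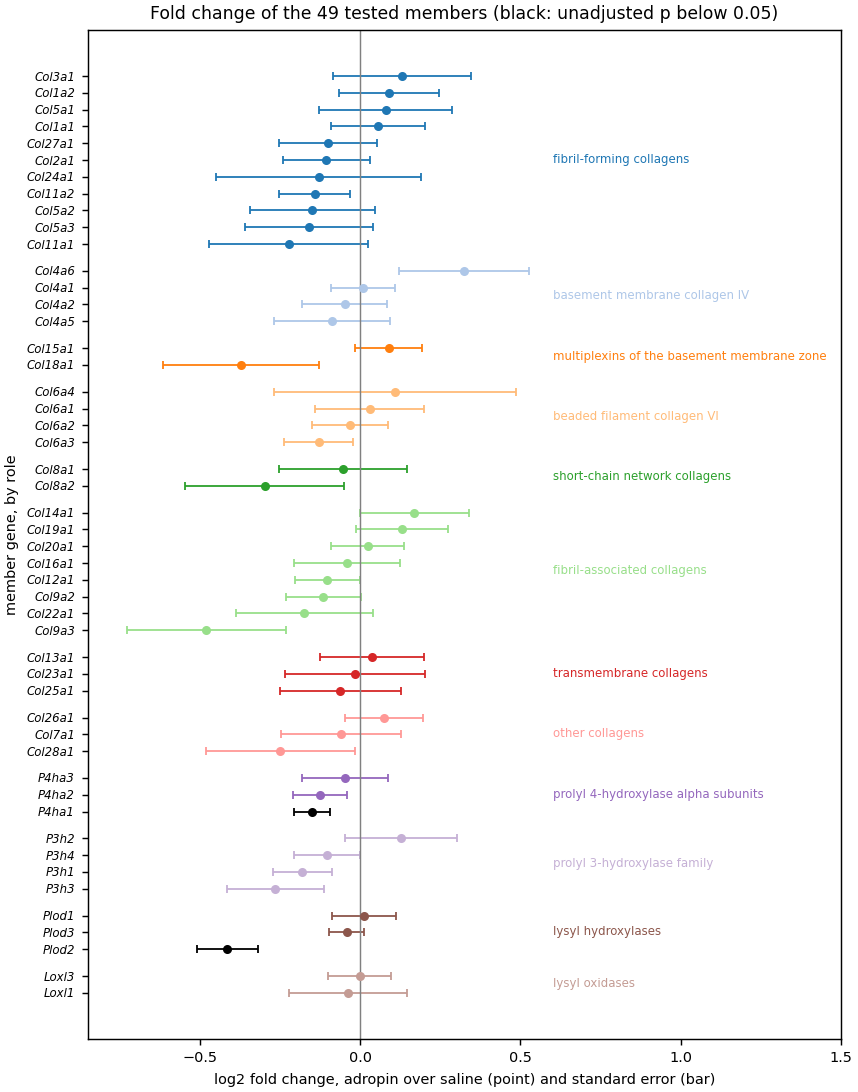
Log2 fold change, adropin over saline, of the 49 tested members, grouped and colored by role. Points are edgeR estimates, bars are standard errors and black marks an unadjusted p below 0.05. Plod2 at -0.41 and P4ha1 at -0.15 are the black points, and the 3 meningeal collagens lie between 0.06 and 0.13.

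Plod2 encodes the lysyl hydroxylase of the collagen telopeptides, the short ends from which the stable crosslinks of fibrotic tissue form, and its transcript is known to be induced by hypoxia. Its level in saline-treated mice was 3.07 CPM at the lowest, 3.80 at the median and 4.43 at the highest, and in adropin-treated mice it was 2.41, 2.84 and 3.17. The groups barely overlapped, since 7 of 8 adropin-treated mice were below every saline-treated mouse and 7 of 8 saline-treated mice were above every adropin-treated mouse. Mean levels were 2.81 ± 0.241 CPM in adropin and 3.75 ± 0.462 CPM in saline, so the log2 fold change was -0.41 (SE 0.10), with a 95% confidence interval from -0.62 to -0.21 (edgeR unadjusted p = 0.000399, adjusted p = 0.874). A two-sided exact permutation test over the 12870 divisions of the mice gave p = 0.000311. Plod2 lies on the plus strand of chromosome 9 of GRCm38, from 92542223 to 92608428. Its exons overlap Gm38391 on the other strand, a gene that the deposited counts do not hold. Whether counting used strand is not stated, so the counts of Plod2 are uncertain. Leaving out each mouse in turn kept the log2 fold change between -0.45 and -0.38 with an unadjusted p of 0.00115 or less. The first number of the mouse label, whose meaning is not given, takes 3 values that occur in both groups. With it as a block, which compares the groups only among the 8 mice that carry those values, the log2 fold change was -0.30 and the call was lost (edgeR unadjusted p = 0.0752).

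The other lysyl hydroxylases gave no such difference. Plod3, the member of the family with the highest CPM (not divided by gene length, as in all such statements here), which also glycosylates hydroxylysine, had 28.1 ± 1.69 CPM in adropin and 28.9 ± 2.02 CPM in saline. Its log2 fold change was -0.04, with a 95% confidence interval from -0.16 to 0.07, and its range of 25.5 to 30.5 CPM in adropin lay almost wholly inside the saline range of 26.4 to 31.8 CPM. Plod1, which hydroxylates lysines of the helix, had a log2 fold change of 0.01 with an interval from -0.20 to 0.22. Whether the log2 fold changes of these genes differ from that of Plod2 was not tested. Plod3 overlaps Znhit1 on the other strand, and whether counting used strand is not stated, so its counts are uncertain.

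P4ha1 encodes the main alpha subunit of prolyl 4-hydroxylase, the catalytic part of the enzyme, and is likewise known as a hypoxia-induced gene. Saline-treated mice had 42.0, 43.9 and 51.3 CPM at the lowest, median and highest, and adropin-treated mice 37.1, 40.7 and 45.4. Of the adropin-treated mice 6 were below every saline-treated mouse, and 3 saline-treated mice were above every adropin-treated mouse. The means were 40.9 ± 2.35 CPM in adropin and 45.4 ± 3.65 CPM in saline, so the log2 fold change was -0.15 (SE 0.06, edgeR unadjusted p = 0.0139, adjusted p = 0.874), and the two-sided exact permutation test gave p = 0.00855. The gene lies on the plus strand of chromosome 10, from 59323296 to 59373304. With the block of first label numbers its log2 fold change was -0.10 (edgeR unadjusted p = 0.326). P4ha2 and P4ha3, the other alpha subunits, had log2 fold changes of -0.12 and -0.05, so all 3 genes of this family had lower fitted levels, and 1 was called. Without mouse 8_3, P4ha2 was called lower as well (-0.18, edgeR unadjusted p = 0.0149).

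In the prolyl 3-hydroxylase family 3 of 4 genes had lower fitted levels and none was called. P3h1, whose product works in a complex with Crtap and cyclophilin B on the newly made chain, ranged from 6.48 to 8.37 CPM in adropin (median 7.67) and from 7.0 to 10.5 CPM in saline (median 8.36). Here 4 saline-treated mice were above every adropin-treated mouse, and the log2 fold change was -0.18 with an interval from -0.37 to 0.01 (edgeR unadjusted p = 0.0661). Among the alternative fits it passed an unadjusted p of 0.05 only when saline-treated mouse 2_3, 5_3 or 7_1 was left out, with log2 fold changes of -0.21, -0.20 and -0.22. P3h3 had 20.8 ± 4.72 CPM in adropin and 24.9 ± 5.87 CPM in saline, and its log2 fold change was -0.26 (edgeR unadjusted p = 0.0960). The groups overlapped broadly, from 15.2 to 29.7 CPM in adropin and from 17.1 to 33.1 CPM in saline. P3h3 passed an unadjusted p of 0.05 only without adropin-treated mouse 4_3 (-0.35) or saline-treated mouse 7_1 (-0.33), and neither gene passed in the fit blocked by first label number.

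Of the lysyl oxidases, Loxl1 and Loxl3 were tested and did not differ beyond the spread between mice. Loxl1, which is needed for elastic fibres, had 3.04 ± 0.671 CPM in adropin and 3.12 ± 0.993 CPM in saline, and its log2 fold change was -0.04, or 0.09 without mouse 8_3. Loxl3 had 3.95 ± 0.438 and 3.94 ± 0.495 CPM, with a log2 fold change of -0.0012 and an interval from -0.21 to 0.21. Loxl3 overlaps Htra2 on the other strand. Lox, Loxl2 and Loxl4 were below the filter, with at most 1.11, 0.824 and 0.267 CPM in any mouse.

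**Figure D2:**
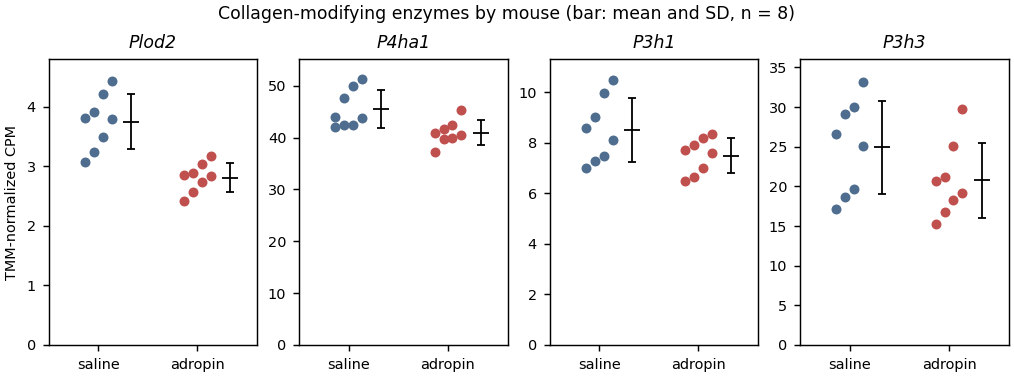
TMM-normalized CPM of Plod2, P4ha1, P3h1 and P3h3 in each mouse, saline in blue and adropin in red, with the group mean and SD beside the points (n = 8 per group). For Plod2, 7 of 8 adropin-treated mice lie below every saline-treated mouse, while the groups overlap broadly for P3h3.

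The meningeal collagens did not differ between the groups beyond the spread between mice, although the spread was wide. Col1a1 encodes the chain that makes up most of collagen I, and it had 11.1, 15.0 and 21.2 CPM at the lowest, median and highest in saline and 11.3, 16.6 and 22.9 CPM in adropin. The ranges were almost the same, and the log2 fold change was 0.06 (SE 0.15), with a 95% confidence interval from -0.25 to 0.36 (edgeR unadjusted p = 0.705, adjusted p = 0.937). Col1a2, the second chain of collagen I, had 18.9 ± 4.32 CPM in saline and 20.1 ± 4.93 CPM in adropin. Its log2 fold change was 0.09 ± 0.16 (SE) with an interval from -0.24 to 0.42 (edgeR unadjusted p = 0.569). Col3a1, the chain of collagen III that is found with collagen I in pliable tissue, was the lowest of these genes, at 2.72 ± 0.951 CPM in saline and 2.98 ± 0.810 CPM in adropin. Its log2 fold change was 0.13 ± 0.22 (SE) with an interval from -0.32 to 0.58 (edgeR unadjusted p = 0.551). Leaving out each mouse in turn gave log2 fold changes from 0.04 to 0.19 for Col1a2 and from 0.03 to 0.26 for Col3a1. The two-sided exact permutation test gave p = 0.745, 0.655 and 0.509 for Col1a1, Col1a2 and Col3a1. On GRCm38, Col1a1 lies on chromosome 11 from 94936224 to 94953042, Col1a2 on chromosome 6 from 4504814 to 4541544 and Col3a1 on chromosome 1 from 45311538 to 45349706. Col3a1 overlaps Gm47302 on the same strand, a gene that the deposited counts do not hold. The direction of Col1a1 depended on single mice, since without adropin-treated mouse 4_3 its log2 fold change was -0.01. In the fit blocked by first label number, Col1a1 and Col1a2 had log2 fold changes of -0.22 and -0.15, and neither was called.

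**Figure D3:**
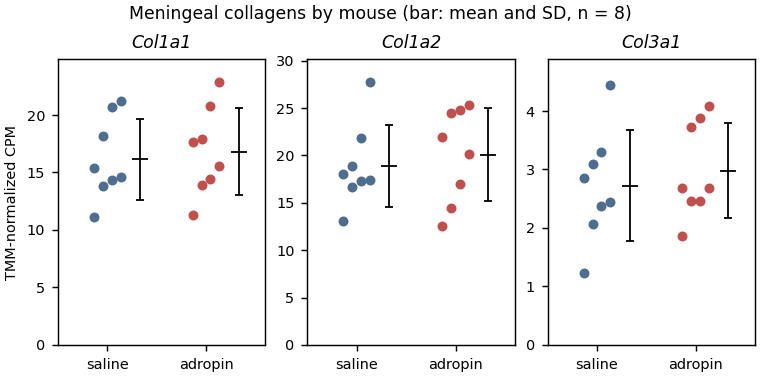
TMM-normalized CPM of the meningeal collagens Col1a1, Col1a2 and Col3a1 in each mouse, with the group mean and SD beside the points (n = 8 per group). The saline (blue) and adropin (red) points overlap over nearly their whole range in each gene.

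Levels of some of these genes moved together between mice of a group. With group means subtracted, Col1a1 varied over the 16 mice with Col1a2 (Pearson r = 0.818, permutation p = 0.00017, Spearman rho = 0.782, permutation p = 0.00074) and with the transporter Slc6a13, a marker of meningeal fibroblasts (r = 0.829, permutation p = 0.00023, rho = 0.797, permutation p = 0.00078). Adjusted over the 6 relations computed, the permutation p of r was 0.00069 for each. Both relations were seen within each group, with r of 0.929 in adropin and 0.682 in saline for Col1a2, and 0.954 and 0.740 for Slc6a13. When the 2 mice with the most extreme Col1a1 were left out, r was 0.759 and 0.734. Col1a1 and Col3a1 gave r = 0.565 (permutation p = 0.0270, adjusted p = 0.0540; rho = 0.512, permutation p = 0.0536), and r = 0.506 without those 2 mice. Dcn, which encodes the fibril-binding proteoglycan decorin, gave r = 0.489 (adjusted permutation p = 0.0992; rho = 0.365, permutation p = 0.182), and r = 0.155 without 2 mice, so that relation rests on them. Neither the vessel collagen Col4a1 (r = -0.0539, permutation p = 0.851; rho = -0.0794, permutation p = 0.776) nor Ttr, the main transcript of choroid plexus epithelium (r = 0.168, permutation p = 0.556; rho = 0.250, permutation p = 0.347), varied with Col1a1 at a permutation p below 0.05. The adjusted permutation p was 0.851 for Col4a1 and 0.667 for Ttr.

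The 10 genes outside the members whose log2 levels were most like the mean of the 3 meningeal collagens over the 16 mice had Pearson r from 0.846 to 0.930. They were Prg4 (0.930), which encodes lubricin, Thbd (0.910), which encodes thrombomodulin, the transporters Slc6a13 (0.900), Slc12a7 (0.889), Slc22a6 (0.888) and Slc6a20a (0.860), the gap junction gene Gjb2 (0.886), Spp1 (0.855), which encodes osteopontin, Aebp1 (0.849), whose product binds fibrillar collagen, and Gm14277 (0.846). Slc6a13 and Slc22a6 are on the list of meningeal fibroblast markers. Of the 10 genes only Gm14277 was called, lower in adropin by more than 1.5-fold (log2 fold change -0.61, edgeR unadjusted p = 0.00318, adjusted p = 0.874). The others had an edgeR unadjusted p of 0.312 or more. No other member reached r = 0.8 with the mean of the meningeal collagens, and 4 of 46 were above 0.5 (8.70%, against 3.89% of all genes), namely Col9a2 (0.700), Loxl1 (0.638), Col8a2 (0.578) and Col4a5 (0.548), which were named after their values were seen. Without mouse 8_3 the same 4 were above 0.5, at 0.788, 0.667, 0.707 and 0.591, with 3.87% of all genes above it, and the 10 genes had r from 0.844 to 0.928.

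Among the fibril-forming collagens, 7 of 11 had lower fitted levels, the 3 meningeal genes and Col5a1 had higher ones, and none was called. Col5a1, whose chain nucleates collagen I fibrils, had the highest count level of this class with 58.9 ± 25.3 CPM in saline and 62.3 ± 13.9 CPM in adropin, and its saline-treated mice ran from 39.4 to 111 CPM. It overlaps 2810430I11Rik on the other strand. Col11a2, a chain of cartilage collagen XI, had the smallest p of the class (-0.14, edgeR unadjusted p = 0.220), with 34.5 ± 4.89 CPM in adropin and 38.0 ± 7.17 CPM in saline.

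Basement membrane collagen IV is the scaffold of vessel walls, and of its 4 tested chains 2 were lower and 2 higher, none called. Col4a2 had 75.8 ± 9.65 CPM in adropin and 78.4 ± 19.6 CPM in saline, a log2 fold change of -0.05 with an interval from -0.33 to 0.23. The saline-treated mice were the more scattered, from 53.4 to 101 CPM, with 4 of them above every adropin-treated mouse. Col4a6, whose chain pairs with that of Col4a5, had the largest positive log2 fold change of all members, 0.32 with an interval from -0.10 to 0.75 (edgeR unadjusted p = 0.129). Its levels were low, from 1.01 to 2.38 CPM in adropin and from 0.521 to 1.91 CPM in saline. Without mouse 8_3 it was called higher, with a log2 fold change of 0.43 (edgeR unadjusted p = 0.0434, adjusted p = 0.994). Col4a3 and Col4a4 were not tested, with highest levels of 0.802 and 1.54 CPM.

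Collagen VI forms beaded filaments around cells, and Col6a1, its chain with the highest CPM, had 53.0, 81.3 and 111 CPM at the lowest, median and highest in adropin and 45.6, 90.5 and 106 CPM in saline. The log2 fold change of Col6a1 was 0.03 with an interval from -0.33 to 0.39, and the ranges overlapped. Col6a3, the long chain of the filament, had the smallest p of this class, with 3.37 ± 0.495 CPM in adropin and 3.69 ± 0.438 CPM in saline (-0.13, edgeR unadjusted p = 0.242). Of 4 tested chains 2 were lower, or 3 without mouse 8_3, where the log2 fold change of Col6a1 was -0.04, and Col6a5 and Col6a6 reached at most 2.00 and 1.81 CPM and were not tested.

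Fibril-associated collagens coat or link fibrils, and 5 of the 8 tested had lower fitted levels, with none called. Col19a1, named after its values were seen, was called higher in the fit blocked by first label number (0.55, edgeR unadjusted p = 0.00984) and in that blocked by the second (0.28, edgeR unadjusted p = 0.0395), and had 15.6 ± 1.75 CPM in adropin and 14.3 ± 4.20 CPM in saline. Col16a1 had the highest CPM of them, 31.6 ± 7.62 CPM in adropin and 32.5 ± 8.17 CPM in saline. Transmembrane collagens sit in the cell surface with a collagenous part outside, and neurons make some of them. Of the 3 tested, 2 were lower, and Col25a1, the precursor of the amyloid plaque component CLAC, had 27.1 ± 4.94 CPM in adropin and 28.3 ± 10.5 CPM in saline (-0.06, interval from -0.46 to 0.33). Of the chains that belong to no larger class, Col26a1 had the highest CPM, 8.19 ± 1.10 CPM in adropin and 7.79 ± 1.57 CPM in saline, and Col28a1 the smallest p (-0.25, edgeR unadjusted p = 0.297). Col9a1, Col10a1 and Col17a1 were not tested, with highest levels of 0.832, 0.753 and 2.88 CPM. With the filter on low levels lifted, Col9a1, a chain of collagen IX, was lower by more than 1.5-fold (log2 fold change -0.67, edgeR unadjusted p = 0.0239), at 0.391 ± 0.183 CPM in adropin and 0.619 ± 0.132 CPM in saline.

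The largest negative log2 fold changes of collagen chains, those of Col9a3, Col18a1 and Col8a2, rested on mouse 8_3. Those next in size, of Col28a1 and Col11a1, did not, at -0.25 and -0.22 with the mouse and -0.35 and -0.33 without it. Col9a3, a chain of fibril-associated collagen IX, had 33.9 CPM in this mouse, and between 6.86 and 12.9 CPM in the other 15 mice. Col18a1, which encodes the basement membrane collagen whose end is cleaved to endostatin, had 24.6 CPM there and at most 9.22 elsewhere. Col8a2 and Col8a1, the chains of short-chain collagen VIII, had 10.4 and 8.84 CPM there and at most 5.41 and 5.62 elsewhere. With this mouse the log2 fold changes of Col9a3, Col18a1, Col8a2 and Col8a1 were -0.48, -0.37, -0.30 and -0.05. Without it they were -0.12, -0.01, 0.0040 and 0.17, and the saline mean of Col9a3 was 10.4 ± 1.98 CPM in place of 13.4 ± 8.51 CPM (SD, n = 7 and 8), against 9.60 ± 1.55 CPM in adropin. In edgeR's test none of these genes was called with or without the mouse, whereas DESeq2 called Col9a3 lower with all mice (-0.48, DESeq2 unadjusted p = 0.0482, adjusted p = 0.888). The edgeR unadjusted p of Col9a3 was 0.0680 with it and 0.357 without it. Leaving out saline-treated mouse 6_1 or 7_1 in its place gave Col9a3 log2 fold changes of -0.57 and -0.54 and an unadjusted p below 0.05. No other alternative called Col9a3, and the fit blocked by first label number did not. Col9a3 overlaps Tcfl5 on the other strand.

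Mouse 8_3 had the highest level of all 16 mice in 9 of the 49 members (18.4%), where the same held for 11.4% of all genes tested. Without the mouse, 3 members were called lower (Plod2, P4ha1 and P4ha2) and 1 higher (Col4a6), while 1.5% of all genes were called lower and 1.27% higher. Choroid plexus markers moved with it. Of 9 listed markers 5 were tested, all 5 were called lower in adropin, and 2 were without mouse 8_3. The summed level of the list had a median of 19.2 CPM in adropin and 21.8 CPM in saline (two-sided exact permutation test on log2 sums, p = 0.326). Ttr alone had 2398 CPM in this mouse, and a median of 13.0 CPM in adropin and 11.8 CPM in saline. Over the 16 mice, with group means subtracted, the r with Ttr was 0.724 for Col9a3, 0.524 for Col18a1, 0.715 for Col8a2 and 0.830 for Col8a1, and without mouse 8_3 it was 0.262, -0.394, 0.368 and 0.629. Of cerebellar markers, the list of 4 genes summed to 280 CPM in mouse 8_3 and to between 5.96 and 8.29 CPM in adropin-treated mice. The part of either tissue in these collagen levels was not tested.

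**Figure D4:**
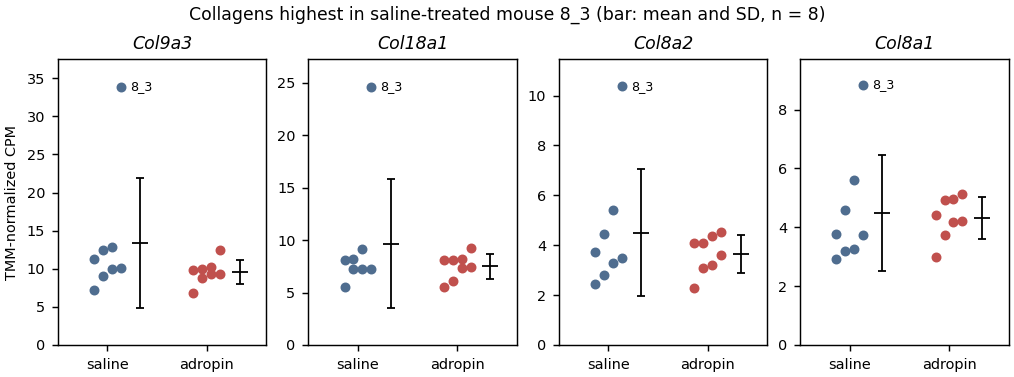
TMM-normalized CPM of Col9a3, Col18a1, Col8a2 and Col8a1 in each mouse, with the group mean and SD beside the points (n = 8 per group). Saline-treated mouse 8_3 is labelled and lies above all other mice in each gene, at 33.9, 24.6, 10.4 and 8.84 CPM.

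Some chains of the same collagen varied together between mice and others did not. Over the 16 mice, with group means subtracted, 23 of the 1176 pairs of tested members (1.96%) had a Pearson r above 0.8, and 2.11% of all pairs of genes tested did. All genes of a mouse come from 1 library, and these r are given as a description. The highest was 0.940, for Col4a1 and Col4a2, whose windows share 78 bases and which overlap by 22 bases on opposite strands. Col6a1 and Col6a2, neighbours on the same strand of chromosome 10 with 85161 bases between them, gave 0.922, and Col8a1 and Col8a2 on different chromosomes gave 0.867. Without mouse 8_3 these r were 0.945, 0.911 and 0.704. Col3a1 and Col5a2, tail to tail on chromosome 1 and 24614 bases apart, gave -0.261. Col4a5 and Col4a6, head to head on chromosome X, gave 0.620, while each of them gave a negative r with Col4a1 and Col4a2, down to -0.553 for Col4a1 with Col4a5. Without mouse 8_3, Col4a5 and Col4a6 gave 0.50, and the r of Col4a1 was -0.219 with Col4a5 and -0.109 with Col4a6, and that of Col4a2 was -0.318 and -0.227. Of all 19 pairs of tested chains of the same collagen type, 4 had an r above 0.8, 6 had an r below 0, and the median was 0.406. Without the mouse 3 were above 0.8, 6 were below 0 and the median was 0.304, while 43 of all member pairs (3.66%) and 2.28% of all pairs of genes were above 0.8. Further pairs with high r, named after their values were seen, were the fibril-forming chains Col11a1 and Col24a1 (0.909), the family members P3h1 and P3h3 (0.870) and, across classes, Col27a1 and P3h3 (0.885), at 0.895, 0.889 and 0.907 without mouse 8_3. The called members Plod2 and P4ha1 gave r = -0.145, or -0.159 without mouse 8_3. The lowest r of all pairs was -0.781, for Col18a1 and P4ha2, and it was -0.326 without that mouse.

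**Figure D5:**
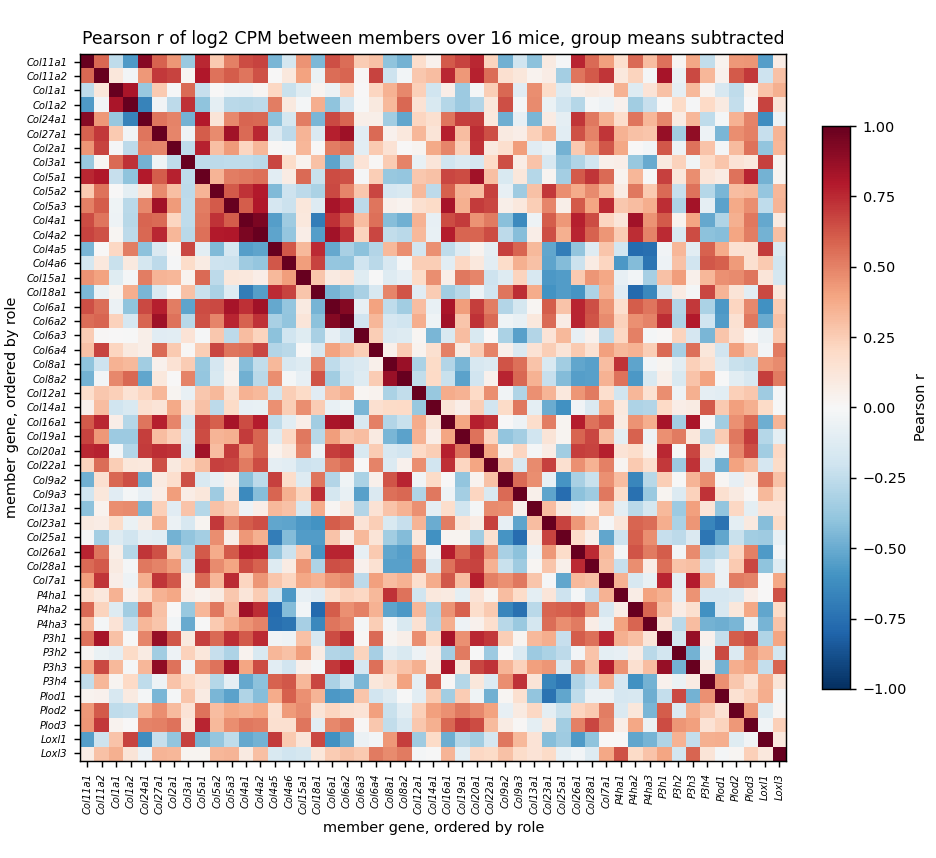
Pearson r between the 49 tested members over 16 mice, from log2 TMM-normalized CPM with group means subtracted, with genes ordered by role on both axes and the color scale running from -1 to 1. Col4a1 with Col4a2 (0.940) and Col6a1 with Col6a2 (0.922) are dark red squares beside the diagonal, while the meningeal collagens are red with each other and pale with most other members.

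Levels of different genes were compared as the mean CPM of the 16 mice per kilobase of annotated exon. On this scale the highest member was Col6a1 at 18.8, followed by Col4a2 at 11.6, P4ha1 at 10.5, Col4a1 at 7.26, P3h4 at 7.23 and Col5a1 at 7.14. Of the meningeal collagens, Col1a1 was at 2.51, Col1a2 at 1.57 and Col3a1 at 0.291 CPM per kilobase. Plod2, the member with the smallest p, was at 0.608. The length joins the exons of all annotated transcripts, and it is 12426 bases for Col1a2 and 6563 for Col1a1. In CPM not divided by length Col1a2 was the higher of the pair, at 19.5 against 16.5, so ranks on this scale depend on the annotation.

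Genes that work with collagen were not called either. Of 61 listed partners 53 were tested, 23 had lower and 30 higher fitted levels, the median log2 fold change was 0.02, and 0 had an unadjusted p below 0.05 in either direction (edgeR smallest unadjusted p = 0.0535). This smallest p belonged to Ddr2, a receptor tyrosine kinase that binds fibrillar collagen, with 8.93 ± 1.46 CPM in adropin and 7.58 ± 1.15 CPM in saline (log2 fold change 0.24). Without mouse 8_3, Ddr2 was called higher (0.29, edgeR unadjusted p = 0.0207). The folding and export partners were lower in 6 of 10, and Sparc, a secreted chaperone of collagen, had the highest CPM of them with 217 ± 22.2 CPM in adropin and 246 ± 45.4 CPM in saline (-0.18, edgeR unadjusted p = 0.0841). Genes that process procollagen ends were lower in 5 of 6, with Bmp1, the C-proteinase, at 66.1 ± 7.63 and 69.8 ± 18.0 CPM. Fibril-binding glycoproteins were lower in 5 of 7, with Fn1 (fibronectin) at 55.6 ± 9.86 and 52.8 ± 8.88 CPM. Breakdown enzymes and their inhibitors were higher in 6 of 7, with Timp2, a metalloproteinase inhibitor, at 320 ± 57.7 and 322 ± 83.5 CPM. Collagen receptors were higher in 3 of 6, with Ddr1 at 79.8 ± 9.18 and 81.9 ± 10.7 CPM. Laminins and the other basement membrane partners of collagen IV were higher in 10 of 11, with a median log2 fold change of 0.04, and Agrn (agrin) had 209 ± 18.6 and 207 ± 29.3 CPM. Genes of transforming growth factor beta signaling, which drives collagen genes in fibrosis, were higher in 4 of 6, with Ccn2 at 23.5 ± 4.14 and 22.1 ± 3.73 CPM.

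Markers of the cells that make collagen were set beside these values. The 14 markers of meningeal and perivascular fibroblasts summed to between 259 and 438 CPM in adropin (median 304) and between 212 and 569 CPM in saline (median 318; two-sided exact permutation test on log2 sums, p = 0.709), the highest being mouse 8_3, and of the 13 tested 7 were lower and 0 called, with 5 lower without that mouse. Igf2, the gene of the list with the highest CPM, had 101 ± 20.1 CPM in adropin and 118 ± 56.7 CPM in saline. Mouse 8_3 had 243 CPM of Igf2, and the medians were 96.0 CPM in adropin and 96.3 CPM in saline. Vascular smooth muscle markers were lower in 5 of 5 with 0 called, and in 4 of 5 without mouse 8_3, and Acta2, smooth muscle actin, had 19.7 ± 5.29 and 25.4 ± 9.79 CPM (-0.37, edgeR unadjusted p = 0.0729). Mouse 8_3 had 47.1 CPM of Acta2, and the medians were 16.9 CPM in adropin and 21.2 CPM in saline. Of 6 pericyte markers 2 were lower and 1 of them was called, Rgs5 (-0.16, edgeR unadjusted p = 0.0345, and without mouse 8_3 -0.15, edgeR unadjusted p = 0.0558), while Vtn had the highest CPM, at 90.3 ± 4.96 and 93.4 ± 16.2 CPM. Endothelial markers were higher in 5 of 7 with 0 called, with Flt1 at 82.7 ± 11.3 and 78.3 ± 4.62 CPM. The part of these cells in the levels of Plod2 and P4ha1 was not tested.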

How the data were processed

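Brain RNA of 8 adropin-treated and 8 saline-treated mice was sequenced by the authors as paired-end libraries after poly-A selection. Reads were aligned by the authors with STAR (Ensembl release 76), and raw counts of reads that mapped to 1 place and 1 gene, made with featureCounts, were deposited without normalization. Whether counting used strand is not stated. A second deposited table of scaled values was not used. Of 40757 entries 276 repeats of a gene were dropped, and 355 ribosomal RNA genes were left out.

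TMM size factors came from all genes. A gene was tested if it exceeded 1 CPM in 7 or more mice, and the 14949 such genes were compared by the quasi-likelihood test of edgeR 4.0.16 (R 4.3.3), with Benjamini-Hochberg adjustment over all of them. The script was tested on simulated data. Single genes were also compared by the two-sided exact permutation test over 12870 divisions of the mice, on log2 CPM (prior count 2). Relations between genes used 100000 permutations within groups. Coordinates and exon lengths are those of GENCODE on GRCm38, read with rtracklayer 1.62.0.

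The members, gene lists and tests were chosen with earlier results of these data known. Named are the meningeal collagens, members with an unadjusted p below 0.05, the member with the highest CPM (not per length) and the one with the smallest p of each class, members below the filter, the gene with the highest CPM of each partner and vessel or fibroblast marker list, and the 10 genes most like the meningeal collagens. Alternatives were limma-voom (limma 3.58.1), DESeq2 1.42.0, its size factors, library size only, testing without a filter, a minimum of 10 counts in all mice, each label number as a block, and leaving out each mouse. Pearson r without mouse 8_3 was added after seeing the data. The number of mice and, for genes near 1 CPM, the total counts of 35026503 to 70314050 per mouse limit the precision.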

Additional observations from a re-analysis of the deposited data

Results flagged for a closer look

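In 24 named members the most extreme mouse of each group of 8 was set against the nearest of the others, relative to the range of the group, which gave 48 comparisons. Chance gives about 1 in 20, or 2.4, and 4 stood apart, all of them in saline-treated mouse 8_3. Some members were named for the smallest p of their class. For Col9a3, Col18a1 and Col8a2 that p rested on this mouse, so the count is a description and cannot be judged against chance. The TMM-normalized CPM of this mouse was 33.9 for Col9a3 (nearest 12.9), 24.6 for Col18a1 (nearest 9.17), 10.4 for Col8a2 (nearest 5.41) and 8.84 for Col8a1 (nearest 5.62). The same mouse had the highest summed level of choroid plexus markers, 2489 CPM, and the part of that tissue in the 4 collagen levels was not tested.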

How the results depend on the processing

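No member had an adjusted p below 0.05 under any alternative run, and the smallest adjusted p of Plod2 was 0.0643, in DESeq2. Plod2 and P4ha1 kept their direction under all alternatives and their unadjusted call under all but the block of first label numbers, where the log2 fold changes were -0.30 and -0.10. That block left 20 members lower in adropin, where 50.2% of all genes were lower. Its median log2 fold change was 0.08 over members and -0.0006 over all genes, with 0 members called lower and 1 called higher (Col19a1). It turned the direction of 19 members, which among those named were Col1a1 (-0.22), Col1a2 (-0.15), Col11a2 (0.0689), Col16a1 (0.15), Col28a1 (0.0371), Col4a2 (0.18), Col8a1 (0.14), Loxl1 (0.10), Loxl3 (0.092) and Plod3 (0.065). The second label number as a block called 1 member higher (Col19a1 again) and turned 8 members, among those named Col16a1 (0.0348), Col4a2 (0.0224) and Loxl3 (0.0039). Limma-voom turned 4 members, among those named Col25a1 (0.0062) and Col8a1 (0.0403), and DESeq2 called 3 members lower, Plod2, P4ha1 and Col9a3. With no filter, 1 member (Col9a1) was lower by more than 1.5-fold with an unadjusted p below 0.05. Scaling by library size only turned the r of Col1a1 with Col4a1 to 0.0458. Without each mouse in turn, members called lower numbered 2 to 5 and higher 0 to 1, the 5 being Plod2, P4ha1, P3h1, P3h3 and Col9a3 without saline-treated mouse 7_1. In these fits r of Col1a1 ranged from 0.404 to 0.655 with Col3a1, from -0.141 to 0.0814 with Col4a1 and from 0.352 to 0.609 with Dcn. Log2 fold changes ranged from -0.01 to 0.12 for Col1a1, -0.10 to 0.0424 for Col16a1, -0.16 to 0.0773 for Col25a1, -0.11 to 0.0134 for Col4a2, -0.0596 to 0.11 for Col6a1, -0.13 to 0.17 for Col8a1, -0.39 to 0.0040 for Col8a2, -0.11 to 0.0929 for Loxl1 and -0.0469 to 0.0372 for Loxl3. The labels do not say what their numbers mean, and adropin-treated and saline-treated mice have 3 first numbers in common. The cause of these shifts was not tested. Scaling by library size only moved the median log2 fold change of all genes to -0.02, with 58.5% of all genes lower. Shares of all genes called are given for the main fit and for the fit without mouse 8_3, and not for the other alternatives.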

Other observations

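Marker lists of further cells and tissues were summed for each mouse as a description of the tissue taken. Neuronal markers had higher fitted levels in 6 of 6 genes with 0 called, and their sums had medians of 7757 CPM in adropin and 7434 CPM in saline (two-sided exact permutation test on log2 sums, p = 0.0617). Astrocyte markers were higher in 3 of 4 with 0 called, and microglial markers in 4 of 4 with 1 called, with median sums of 185 CPM in adropin and 166 CPM in saline (exact permutation p = 0.0713). Oligodendrocyte markers were lower in 4 of 4 with 0 called, and their sums spread widely, from 2515 to 7373 CPM in adropin and from 2494 to 7448 CPM in saline (exact permutation p = 0.285). Blood markers had median sums of 225 CPM in adropin and 376 CPM in saline (exact permutation p = 0.657). Sums of pituitary, skeletal muscle and bone markers were at most 2.10, 18.9 and 11.3 CPM in any mouse.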
